A study of Homo sapiens with 9 samples.

Results

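The 9 genes described here encode receptors that T cells use to find and hold their place in tissues, and each was found by its symbol in the table of 26228 genes. CXCR4, CCR7 and CCR9 are chemokine receptors, S1PR1 is a receptor for the lipid sphingosine-1-phosphate, and ITGA4, ITGAL, ITGB1, ITGB2 and ITGB7 are integrin subunits. Messenger RNA was sequenced from exponentially growing Jurkat cells, an established line of human T-cell acute lymphoblastic leukaemia kept in RPMI medium with serum and antibiotics. The series compares the CRISPR/Cas9-edited lines labelled EZH2-KO2 and EZH2-KO1 with the unedited line labelled EZH2-WT, with 3 libraries in each group that the submitters call biological triplicates. WT here means the unedited leukaemia line and not a normal T cell, each knockout is 1 edited line, and whether a line came from 1 cell is not given in the sources used here. A p-value below thus speaks of how libraries of a line vary, and not of how separate edits would.

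Lymphocytes move between blood and tissue in steps: chemokine receptors sense a ligand on the vessel wall or in the tissue, signal through inhibitory G proteins, and switch integrins to a state that binds tightly to cell surface ligands and matrix. CXCR4 binds CXCL12 and retains cells in bone marrow and thymus, CCR7 binds CCL19 and CCL21 and leads cells to lymph nodes, CCR9 binds CCL25 of thymus and small intestine, and S1PR1 draws cells out of thymus and lymph nodes toward blood. Integrins are pairs of an alpha and a beta subunit: ITGAL with ITGB2 makes LFA-1, which binds ICAM proteins, ITGA4 with ITGB1 makes VLA-4, which binds VCAM-1 and fibronectin, and ITGA4 with ITGB7 makes the gut-homing receptor for MAdCAM-1. The enzyme encoded by EZH2 sits in Polycomb repressive complex 2 and methylates histone H3 at lysine 27, a mark of silenced genes.

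Levels are in FPKM, which are fragments scaled to transcript length and to library size, and group levels are shown as mean ± SD (n = 3 in every group). Log2 fold changes carry their SE and come from limma on log2(FPKM + 1) with Benjamini-Hochberg adjustment over all 11737 genes at 1 FPKM or more in at least 3 libraries, and an adjusted p under 0.05 was the threshold. The scale understates changes of genes near or under 1 FPKM. The FPKM of a library summed to between 417737 and 439704, the number of reads is unknown, and steps between low values gave depths of 0.965 to 1.16 relative to WT replicate 3. The EZH2 transcript stood at 89.5 ± 1.40 FPKM in KO2, 106 ± 2.5 in KO1 and 77.2 ± 2.54 in WT, so it was present in every library and does not check the labels. All 12 listed T-cell markers reached 1 FPKM, and their summed level was 1610 to 1644 FPKM in KO2, 1384 to 1523 in KO1 and 1605 to 1714 in WT. Single markers shifted within that sum. CD2 had 3.54 to 5.11 FPKM in KO2, 87.2 to 94.4 in KO1 and 35.0 to 36.6 in WT. The 5 epithelial markers summed to at most 0.558 FPKM, the 6 myeloid markers to at most 3.27 and the 5 fibroblast markers to at most 1.88 in any library. The 5 erythroid markers summed to at most 1.5 FPKM, in a KO1 library. The 6 natural killer markers summed to 8.99 to 11.5 FPKM in KO2, 21.0 to 23.6 in KO1 and 2.06 to 2.42 in WT, with NCAM1 and NKG7 alone above 1 FPKM and KLRF1 at 0 in every library. The 6 B-cell markers summed to 19.3 to 22.4 FPKM in KO2, 48.8 to 58.4 in KO1 and 24.6 to 29.0 in WT, with CD79A alone above 1 FPKM and PAX5 at 0 in every library. The part of other cell types in the results was not tested, and in bulk RNA fewer cells with a transcript and less of it per cell cannot be told apart.

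In both edited lines S1PR1 and CCR7 were higher than in WT, ITGAL was much lower, ITGB2 and CXCR4 were lower by less, and ITGA4, ITGB1 and ITGB7 were higher by less. CCR9 was close to 0 FPKM in every library. Of the 9 genes 8 were tested, and 5 were higher and 3 lower in KO2, with the same counts in KO1. Over all tested genes 64.7% passed in KO2 and 67.5% in KO1, so passing the threshold was common in these comparisons. A log2 fold change of at least 1 in size that also passed was found for S1PR1 and CCR7 (higher) and ITGAL (lower) in both lines. CCR7 in KO2, at 1.04, lay near that limit and fell below 1 under 5 of 19 alternatives, among them median centring (0.99) and quantile normalization (0.77). Over all tested genes 3.89% were that much higher and 2.16% that much lower in KO2 (6.05% in all), and 5.56% and 2.85% in KO1 (8.4% in all). CCR7 and ITGB7 met the filter on low values only through edited libraries, as no WT library reached 1 FPKM for either, and the counts of tested genes are not evidence about the group as a whole. The libraries of the edited line and of WT did not overlap for 8 of the 9 genes in KO2, against 69.2% of all tested genes, and for 8 in KO1, against 68.6%. The median log2 fold change of the 8 was 0.24 in KO2, against 0.06 over all tested genes, and 0.31 in KO1, against 0.02. KO2 and KO1 share their WT libraries, so the comparisons are not independent of each other.

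**Figure D1:**
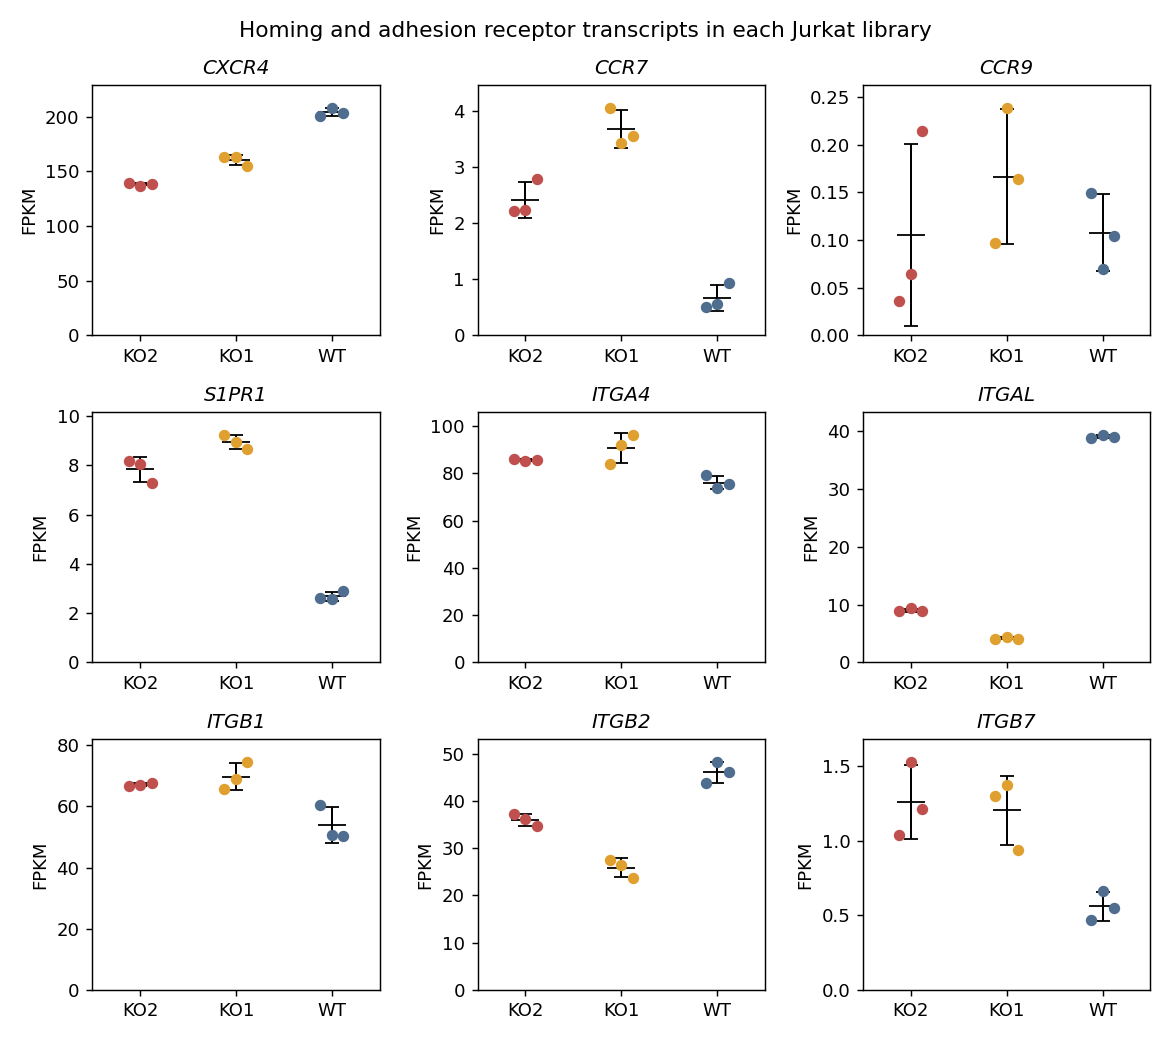
FPKM of each of the 9 genes (vertical axes, each from 0) in the 3 libraries of KO2, KO1 and WT, with points for libraries and bars for the mean ± SD. ITGAL lies between 4.13 and 9.36 FPKM in the edited libraries and between 38.8 and 39.3 in WT, S1PR1 lies above WT in all 6 edited libraries, and CCR9 reaches at most 0.239 FPKM.

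S1PR1, the exit receptor, had 8.20, 8.07 and 7.27 FPKM in KO2 and 9.24, 8.97 and 8.67 in KO1, against 2.61, 2.57 and 2.89 in WT. Every edited library lay well above every WT library. The mean was 2.92 times the WT mean in KO2 (log2 fold change 1.26 ± 0.07, limma adjusted p = 9.27e-08) and 3.33 times in KO1 (1.43 ± 0.07, adjusted p = 2.32e-08). Among 11737 tested genes, 255 had a larger log2 fold change in KO2 and 303 in KO1. The edited lines differed from each other by -0.17 ± 0.07 on the log2 scale, KO2 against KO1, a difference that did not pass (adjusted p = 0.0773), although it passed after median centring (-0.21) and after quantile normalization (-0.22, adjusted p = 0.0266).

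The RefSeq promoter table holds start sites for 6 of the 9 genes (CXCR4, CCR9, S1PR1, ITGA4, ITGB1 and ITGB7), and CCR7, ITGAL and ITGB2 are not in it. The 250 bases before the start are shown for S1PR1 and ITGB7, which were higher in both edited lines, and for the outermost of 3 listed starts of CXCR4, which was lower in both, with CpG dinucleotides in capitals, since Polycomb repressive complex 2 is known to act largely at CpG-rich promoters in mammals. Coordinates are on GRCh38.p14, at chr1:101236769-101237018 on the plus strand for S1PR1, chr12:53207252-53207501 on the minus strand for ITGB7 and chr2:136118150-136118399 on the minus strand for CXCR4, and each sequence reads 5′ to 3′ toward the gene.
S1PR1: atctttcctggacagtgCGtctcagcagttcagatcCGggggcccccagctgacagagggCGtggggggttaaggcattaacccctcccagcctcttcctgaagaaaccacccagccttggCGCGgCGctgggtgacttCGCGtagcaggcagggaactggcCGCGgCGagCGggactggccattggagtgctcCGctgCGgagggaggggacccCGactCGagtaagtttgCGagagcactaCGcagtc
ITGB7: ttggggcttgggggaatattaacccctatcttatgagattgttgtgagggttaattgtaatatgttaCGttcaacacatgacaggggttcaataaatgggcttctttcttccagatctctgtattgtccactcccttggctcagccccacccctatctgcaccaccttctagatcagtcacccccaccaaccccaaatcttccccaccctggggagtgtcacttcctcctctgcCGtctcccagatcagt
CXCR4: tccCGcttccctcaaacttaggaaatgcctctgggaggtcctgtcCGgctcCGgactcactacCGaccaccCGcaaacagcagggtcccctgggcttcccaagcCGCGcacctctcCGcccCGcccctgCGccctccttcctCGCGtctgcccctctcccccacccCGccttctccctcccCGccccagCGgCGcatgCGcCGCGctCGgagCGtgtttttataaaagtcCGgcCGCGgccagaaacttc
The S1PR1 window held 18 CpG, the ITGB7 window 2 and the CXCR4 window 24, against a median of 11 and quartiles of 3 and 23 over 35116 windows of the same length. Of the other listed starts, those of CXCR4 had 12 and 8 CpG, ITGA4 had 25 CpG, the outer start of ITGB1 32 and its inner start 4, and the starts of CCR9 had 4 and 6. The letters CACCC, searched on both strands as the core that KLF factors are known to bind, occurred 2 times in the S1PR1 window, 3 times in that of ITGB7 and 2 times in that of CXCR4, and 54.7% of all windows held them. The forkhead letters TGTTTAC, the E-box CACGTG and the RUNX letters TGTGGT, searched on both strands, did not occur in any window of the 6 genes, which compares with 2.98%, 6.34% and 11% of all windows. Such matches describe letters in a window and show neither binding nor its absence.

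CCR7, the lymph node homing receptor, had 2.21, 2.24 and 2.79 FPKM in KO2 and 4.06, 3.42 and 3.56 in KO1, against 0.502, 0.566 and 0.931 in WT. The 3 groups did not overlap, with KO1 highest and WT lowest. The mean was 3.62 times the WT mean in KO2 (log2 fold change 1.04 ± 0.11, limma adjusted p = 1.75e-05) and 5.52 times in KO1 (1.5 ± 0.11, adjusted p = 8.60e-07). With a pseudocount of 0.1 in place of 1 these became 1.75 in KO2 and 2.34 in KO1, and after quantile normalization 0.77 in KO2 and 1.26 in KO1, all of which passed. Without KO2 replicate 3 the value in KO2 was 0.96, without WT replicate 1 it was 0.97 and without WT replicate 2 it was 0.998. KO2 was lower than KO1 (-0.46 ± 0.11, adjusted p = 0.0118), a comparison in which 30.6% of all tested genes passed.

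CXCR4, the receptor for CXCL12, was the most abundant of the 9 transcripts per length in every group. It had 139, 137 and 139 FPKM in KO2 and 163, 163 and 155 in KO1, against 201, 208 and 204 in WT. The groups did not overlap, and KO2 was lowest. The log2 fold change was -0.56 ± 0.03 in KO2 (limma adjusted p = 2.03e-07) and -0.35 ± 0.03 in KO1 (adjusted p = 5.27e-06), and KO2 was lower than KO1 by -0.21 ± 0.03 (adjusted p = 0.000891). The 30 nearest tested genes of chromosome 2 were shifted between the edited lines too, with a median of -0.43 for KO2 against KO1 and all 30 lower in KO2. Their median was -0.29 in KO2 against WT and 0.17 in KO1 against WT. The part of this regional shift in the CXCR4 values was not tested.

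CCR9, the receptor for CCL25, had 0.0360, 0.0648 and 0.214 FPKM in KO2 and 0.0968, 0.239 and 0.164 in KO1, against 0.150, 0.0693 and 0.104 in WT. The 3 groups overlapped, and CCR9 was below the filter. With no filter its log2 fold change was -0.01 ± 0.07 in KO2 (limma adjusted p = 1) and 0.07 ± 0.07 in KO1 (adjusted p = 0.414), so no difference was detectable at this level.

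**Figure D2:**
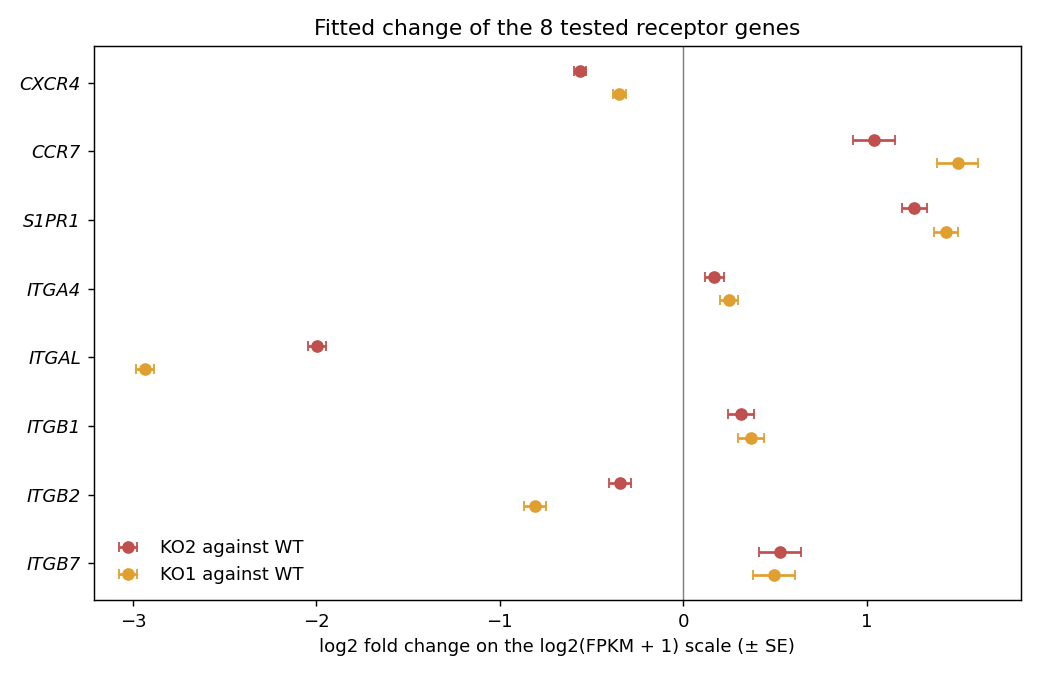
Log2 fold change on the log2(FPKM + 1) scale (horizontal axis, points with ± SE) of the 8 tested genes in KO2 against WT and in KO1 against WT. S1PR1 and CCR7 stand above 1 in both lines and ITGAL at -2.00 in KO2 and -2.94 in KO1.

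ITGAL, the alpha subunit of LFA-1, had 8.87, 9.36 and 8.91 FPKM in KO2 and 4.13, 4.43 and 4.14 in KO1, against 38.8, 39.3 and 39.0 in WT. The 3 groups stood far apart, and libraries of a group differed little. The mean was 4.32-fold lower in KO2 (log2 fold change -2.00 ± 0.05, limma adjusted p = 6.19e-10) and 9.22-fold lower in KO1 (-2.94 ± 0.05, adjusted p = 3.15e-11). Of 11737 tested genes, 38 had a lower log2 fold change in KO2 and 15 in KO1. KO2 was higher than KO1 by 0.94 ± 0.05 (adjusted p = 5.67e-07), and 58 genes had a larger value in that comparison. Among the 30 nearest tested genes on chromosome 16 none was as low: all 30 had higher log2 fold changes in KO2 and all 30 in KO1, with medians of -0.07 in KO2 and -0.19 in KO1.

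ITGB2, the beta subunit of LFA-1 and of the other leukocyte integrins, had 37.3, 36.1 and 34.7 FPKM in KO2 and 27.6, 26.4 and 23.7 in KO1, against 43.8, 48.3 and 46.2 in WT. The groups did not overlap, and the order KO1, KO2, WT from low to high was that of ITGAL. The log2 fold change was -0.35 ± 0.06 in KO2 (limma adjusted p = 0.000472) and -0.81 ± 0.06 in KO1 (adjusted p = 6.95e-07), and KO2 was higher than KO1 by 0.46 ± 0.06 (adjusted p = 0.000254). The fall of ITGAL was thus the larger of the LFA-1 pair. The ratio of ITGAL to ITGB2 FPKM was 0.238, 0.259 and 0.257 in KO2 and 0.150, 0.168 and 0.175 in KO1, against 0.886, 0.815 and 0.844 in WT. The subunits stood close to parity in WT, whereas the ITGB2 level was several times that of ITGAL in the edited libraries. On the log2(FPKM + 1) scale this ratio differed from WT by -1.65 in KO2 and -2.13 in KO1, with an exact two-sided permutation p = 0.10 for each, which is the smallest that 3 against 3 libraries can give.

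ITGA4, the alpha subunit of VLA-4, had 86.1, 85.3 and 85.8 FPKM in KO2 and 84.0, 91.9 and 96.3 in KO1, against 79.2, 73.8 and 75.3 in WT. All edited libraries lay above the WT libraries, by a small margin, and KO2 and KO1 overlapped. The log2 fold change was 0.17 ± 0.05 in KO2 (limma adjusted p = 0.0121) and 0.25 ± 0.05 in KO1 (adjusted p = 0.00122), and KO2 against KO1 did not pass (-0.08 ± 0.05, adjusted p = 0.265). ITGA4 lies on chromosome 2, as does CXCR4, and its 30 nearest tested genes had a median of -0.44 for KO2 against KO1, with 29 of them below ITGA4. Their median was -0.10 in KO2 against WT and 0.33 in KO1 against WT, and the part of this regional shift in the ITGA4 values was not tested.

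ITGB1, the beta subunit of VLA-4 and of many matrix receptors, had 66.7, 67.0 and 67.7 FPKM in KO2 and 65.6, 69.2 and 74.6 in KO1, against 60.6, 50.7 and 50.4 in WT. WT replicate 1 stood closest to the edited libraries, and the edited lines overlapped each other. The log2 fold change was 0.32 ± 0.07 in KO2 (limma adjusted p = 0.00241) and 0.37 ± 0.07 in KO1 (adjusted p = 0.000790), and KO2 against KO1 did not pass (-0.05 ± 0.07, adjusted p = 0.600). ITGB7, the beta subunit of the gut-homing integrin, had 1.04, 1.53 and 1.21 FPKM in KO2 and 1.30, 1.37 and 0.940 in KO1, against 0.468, 0.664 and 0.547 in WT. The edited libraries lay above WT and overlapped each other, at levels far below those of ITGB1. The mean was 2.25 times the WT mean in KO2 (log2 fold change 0.53 ± 0.11, adjusted p = 0.00204) and 2.15 times in KO1 (0.50 ± 0.11, adjusted p = 0.00280). After quantile normalization neither passed (0.21, adjusted p = 0.161 in KO2, and 0.14, adjusted p = 0.313 in KO1), and with a pseudocount of 0.1 the log2 fold changes were 1.04 in KO2 and 0.98 in KO1. The ratio of ITGB7 to ITGB1 FPKM was 0.0155 to 0.0228 in KO2 and 0.0126 to 0.0198 in KO1, against 0.00773 to 0.0131 in WT. These ratios lay above WT in every KO2 library, whereas those of KO1 and WT overlapped. On the log2(FPKM + 1) scale the ratio differed from WT by 0.21 in KO2 (exact permutation p = 0.40) and by 0.13 in KO1 (p = 0.50). On that scale the libraries of each line overlapped those of WT, but it understates changes of ITGB7, at levels near or under 1 FPKM.

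Per length, the 9 transcripts kept much of their order across the lines. CXCR4, ITGA4, ITGB1 and ITGB2 led in all 3 groups and CCR7, ITGB7 and CCR9 closed the order, with means of 138, 85.7, 67.1 and 36.0 FPKM for the first 4 in KO2, 160, 90.7, 69.8 and 25.9 in KO1, and 204, 76.1, 53.9 and 46.1 in WT. The middle places changed: S1PR1 with 8.96 ± 0.287 FPKM stood above ITGAL with 4.23 ± 0.169 in KO1, whereas ITGAL stood above S1PR1 in KO2 (9.04 ± 0.271 and 7.85 ± 0.505) and in WT (39.0 ± 0.274 and 2.69 ± 0.175). Libraries of neighbours in the order did not overlap, except those of CCR7 and ITGB7 in WT.

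**Figure D3:**
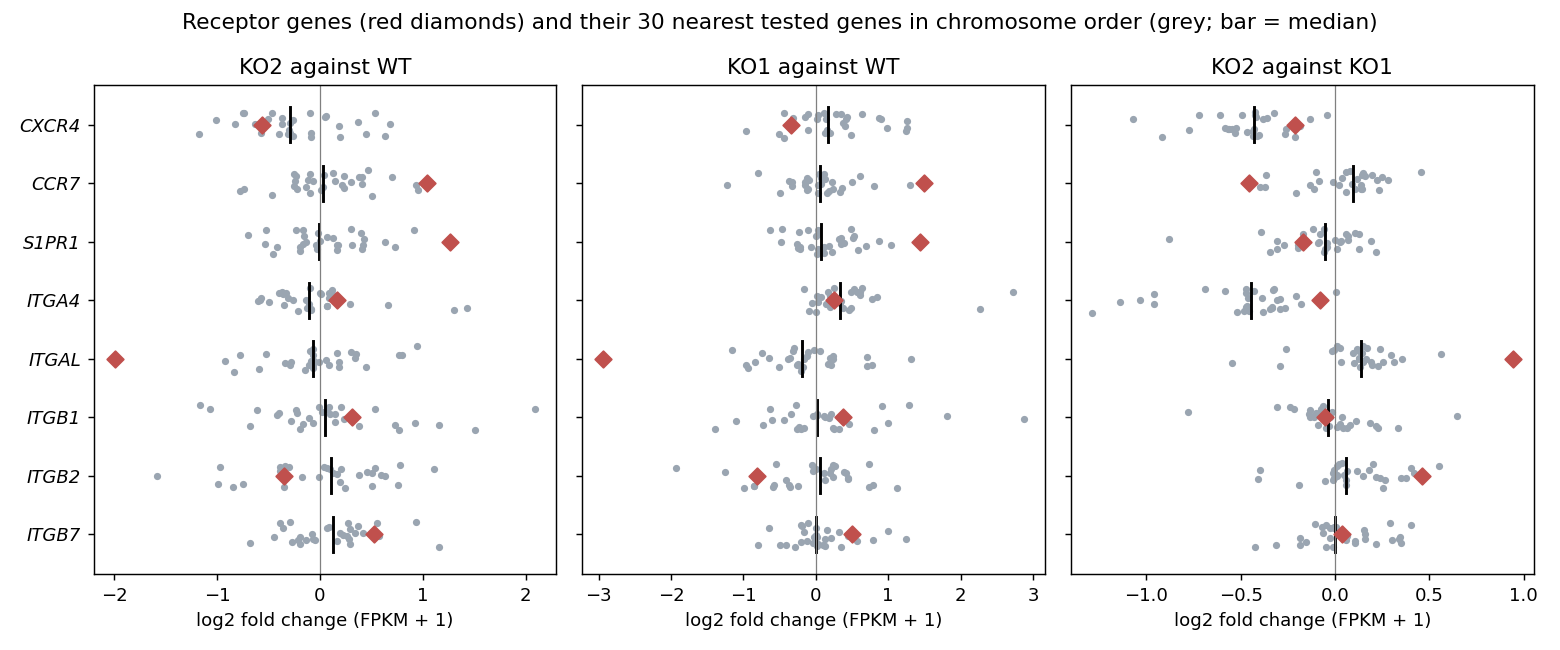
Log2 fold change (horizontal axes, log2(FPKM + 1) scale) of each tested receptor gene (diamond) and of its 30 nearest tested genes in chromosome order (grey points, bar at their median) for KO2 against WT, KO1 against WT and KO2 against KO1. S1PR1 and CCR7 stand above and ITGAL below all 30 neighbours in both comparisons with WT, whereas the neighbours of CXCR4 and ITGA4 are shifted below 0 in KO2 against KO1, with medians of -0.43 and -0.44.

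The regional values differed between the genes. All 30 neighbours of S1PR1 on chromosome 1, and all 30 of CCR7 on chromosome 17, had smaller log2 fold changes than the receptor gene in KO2 and in KO1. The medians of the S1PR1 neighbours were -0.01 in KO2 and 0.07 in KO1, and those of the CCR7 neighbours 0.03 in KO2 and 0.06 in KO1. ITGB2 on chromosome 21 was below 22 of its 30 neighbours in KO2 and below 25 in KO1. ITGB1 on chromosome 10 was above 22 of its neighbours in KO2 and 23 in KO1, and ITGB7 on chromosome 12 was above 26 in each.

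Known regulators of these receptors changed as well, and whether their changes bear on the receptor values was not tested. KLF2, a transcription factor that in mouse T cells activates S1pr1, had 9.55, 8.54 and 8.49 FPKM in KO2 and 11.6, 14.3 and 8.66 in KO1, against 2.05, 3.19 and 2.37 in WT (log2 fold change 1.49 ± 0.16, limma adjusted p = 1.34e-05 in KO2, and 1.81 ± 0.16, adjusted p = 2.41e-06 in KO1). FOXO1, which in mouse T cells acts upstream of Klf2 and Ccr7, had 3.19, 3.13 and 3.07 FPKM in KO2 and 4.33, 4.40 and 4.33 in KO1, against 0.941, 0.702 and 0.808 in WT (1.19 ± 0.07, adjusted p = 2.61e-07 in KO2, and 1.56 ± 0.07, adjusted p = 2.34e-08 in KO1). Both stood above WT in every edited library. For FOXO1 no WT library reached 1 FPKM, so it met the filter on low values only through edited libraries. CD69, an activation antigen whose protein binds S1PR1 and takes it off the cell surface, moved the other way, with 2.7, 2.01 and 1.78 FPKM in KO2 and 0.801, 0.849 and 0.420 in KO1, against 13.2, 12.3 and 11.6 in WT (-2.09 ± 0.13, adjusted p = 2.39e-07 in KO2, and -2.99 ± 0.13, adjusted p = 1.22e-08 in KO1). No KO1 library reached 1 FPKM for CD69, and with a pseudocount of 0.1 its log2 fold change in KO1 was -4.03. The thymocyte factor TCF7 was lower by a small margin (-0.11 ± 0.03, adjusted p = 0.0123 in KO2, a call that 2 of 20 alternatives ended, and -0.23 ± 0.03, adjusted p = 9.05e-05 in KO1), and the hypoxia factor HIF1A, which is known to induce CXCR4, was lower too (-0.20 ± 0.05, adjusted p = 0.00353 in KO2, and -0.29 ± 0.05, adjusted p = 0.000314 in KO1). Of 31 tested regulators of homing receptor genes, 13 rose and 13 fell in KO2 and 13 rose and 13 fell in KO1, and the list median was -0.01 in KO2 and -0.00 in KO1. After quantile normalization 9 rose and 13 fell in KO2, with a median of -0.09, and the counts in KO1 were again 13 and 13. For this list and those below, the shares over all tested genes were 38.1% rising and 26.6% falling in KO2. In KO1 they were 35.6% and 31.9%.

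**Figure D4:**
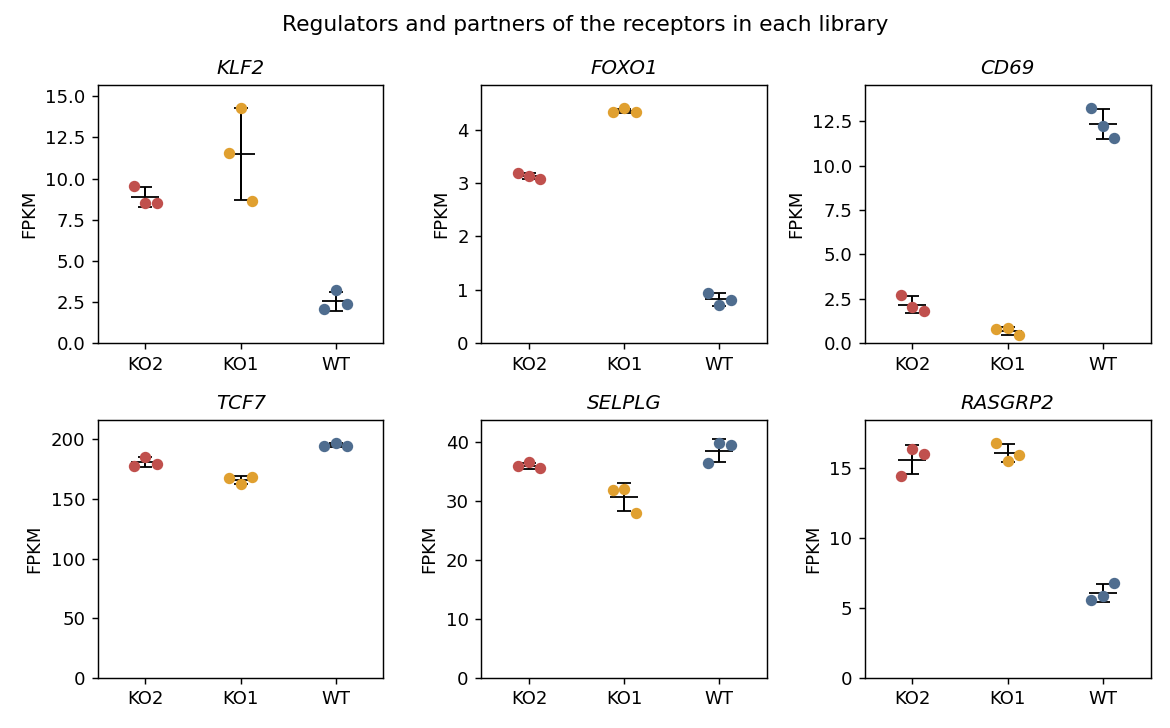
FPKM (vertical axes, each from 0) of KLF2, FOXO1, CD69, TCF7, SELPLG and RASGRP2 in the 3 libraries of KO2, KO1 and WT, with points for libraries and bars for the mean ± SD. KLF2, FOXO1 and RASGRP2 are higher and CD69 and TCF7 lower in all edited libraries than in WT, and the SELPLG libraries of KO2 overlap those of WT.

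Of 33 other chemokine and lipid homing receptors, 10 were tested. In KO2 3 of them rose and 2 fell, and in KO1 2 rose and 6 fell, with a list median of -0.12 in KO2 and -0.35 in KO1. The excess of rises in KO2 depended on scaling, with 2 rising and 3 falling after median centring and 2 rising and 6 falling after quantile normalization. CCR4, a receptor of skin-homing T cells, averaged 3.46 ± 0.390 FPKM in KO2, 3.06 ± 0.0455 in KO1 and 5.39 ± 0.8 in WT and fell in both lines (limma adjusted p = 0.00107 in KO2 and 0.000201 in KO1). CXCR3, a receptor of effector T cells, and S1PR4, a lymphoid relative of S1PR1, were below the filter, with S1PR4 at 0.530 ± 0.210 FPKM in KO2, 0.606 ± 0.357 in KO1 and 0.104 ± 0.0817 in WT.

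Of 21 other integrin subunits, 8 were tested, of which 2 rose and 3 fell in KO2 and 5 rose and 1 fell in KO1. By comparison, 64.7% of all tested genes passed in KO2 and 67.5% in KO1. ITGA6, an alpha partner of ITGB1 in laminin receptors, averaged 20.3 ± 0.358 FPKM in KO2, 25.1 ± 0.893 in KO1 and 12.9 ± 0.267 in WT and rose in both lines (log2 fold change 0.61 ± 0.05, limma adjusted p = 8.98e-07 in KO2, and 0.91 ± 0.05, adjusted p = 3.60e-08 in KO1). ITGA5, the partner of ITGB1 in the fibronectin receptor, fell in KO1 (-0.24 ± 0.04, adjusted p = 0.000736), and its change in KO2 of -0.11 ± 0.04 did not pass (adjusted p = 0.0525). That KO2 change passed under 5 of 20 alternatives. ITGAE, the partner of ITGB7 that binds E-cadherin, went opposite ways, at 3.50 ± 0.272 FPKM in KO2, 6.65 ± 0.364 in KO1 and 4.25 ± 0.0953 in WT, and the difference of KO2 against KO1 itself passed (-0.77 ± 0.07, adjusted p = 2.38e-05). The fall of ITGAE in KO2 had an adjusted p = 0.0147, and 3 of 20 alternatives ended that call. ITGB3, the beta subunit of the vitronectin receptor, fell in KO2 (-0.67 ± 0.10, adjusted p = 0.000129), and its value in KO1 was -0.04 ± 0.10 (adjusted p = 0.712).

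Genes of integrin activation and of its link to the cytoskeleton were mixed, with 17 of 42 tested rising and 18 falling in each line. The list holds inhibitors as well as activators, so its counts give no direction of activation. RASGRP2, an exchange factor for the GTPase Rap1, averaged 15.6 ± 1.05 FPKM in KO2, 16.1 ± 0.655 in KO1 and 6.05 ± 0.629 in WT and rose in both lines (log2 fold change 1.24 ± 0.07, limma adjusted p = 2.16e-07 in KO2, and 1.28 ± 0.07, adjusted p = 1.14e-07 in KO1). RASSF5, a Rap1 effector that binds ITGAL, averaged 34.8 ± 0.215 FPKM in KO2, 31.7 ± 1.58 in KO1 and 49.1 ± 1.09 in WT and fell in both (adjusted p = 4.31e-06 in KO2 and 5.32e-07 in KO1). SKAP1, an adaptor between the T-cell receptor and integrins, fell as well, to 12.8 ± 1.69 FPKM in KO2 and 11.6 ± 0.910 in KO1, against 21.7 ± 0.852 in WT (adjusted p = 3.12e-05 in KO2 and 7.37e-06 in KO1). TLN1, which encodes talin and links beta tails to actin, stood at 57.6 ± 0.537 FPKM in KO2, 57.6 ± 1.24 in KO1 and 58.8 ± 1.73 in WT, with no call in either line (adjusted p = 0.514 in KO2 and 0.527 in KO1). FERMT3, the kindlin of blood cells, fell in KO1 (-0.19 ± 0.05, adjusted p = 0.00753), and its value in KO2 was 0.09 ± 0.05 (adjusted p = 0.137).

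Of 45 tested genes of chemokine receptor signalling and migration, 12 rose and 20 fell in KO2, and 9 rose and 24 fell in KO1, with a median of -0.09 in KO2 and -0.19 in KO1. Over all tested genes 38.1% rose and 26.6% fell in KO2, and 35.6% rose and 31.9% fell in KO1. GNAI2, the main inhibitory G protein alpha subunit of lymphocytes, averaged 126 ± 1.76 FPKM in KO2, 117 ± 8.65 in KO1 and 143 ± 10.6 in WT and fell in both lines (limma adjusted p = 0.0282 in KO2 and 0.00183 in KO1), a call that 8 of 20 alternatives ended in KO2. DOCK2, the Rac exchange factor of migrating lymphocytes, fell in KO1 (-0.19 ± 0.04, adjusted p = 0.00265), and its value in KO2 was -0.04 ± 0.04 (adjusted p = 0.390). RGS1, which dampens chemokine receptor signals, was listed at 0 in every KO2 and WT library and in all but 1 KO1 library.

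The list of ligands of the 9 receptors also holds genes that make, export or break down sphingosine-1-phosphate. Of its 14 tested genes, 6 rose and 5 fell in KO2 and 7 rose and 4 fell in KO1. In KO2 6 rose and 7 fell after median centring, and 5 rose and 8 fell after quantile normalization. ICAM2, a ligand of LFA-1, averaged 44.3 ± 2.22 FPKM in KO2, 37.6 ± 2.26 in KO1 and 63.2 ± 2.86 in WT and fell in both lines (limma adjusted p = 2.09e-05 in KO2 and 9.41e-07 in KO1). ICAM3, another such ligand, fell in KO2 (-0.27 ± 0.05, adjusted p = 0.00138), and its value in KO1 was -0.13 ± 0.05 (adjusted p = 0.0579). That KO1 value passed under 3 of 20 alternatives. ICAM1 stood at 0.947 ± 0.231 FPKM in KO2, 1.84 ± 0.0956 in KO1 and 1.32 ± 0.221 in WT. It rose in KO1 (adjusted p = 0.0312), a call that 9 of 19 alternatives ended. Its value in KO2 did not pass (adjusted p = 0.0600), though it passed under 3 of 19 alternatives. Of 16 tested genes of selectins, their ligand and its glycosyltransferases, 8 rose and 3 fell in either edited line. After quantile normalization 8 rose and 5 fell in KO2, and 8 rose and 6 fell in KO1. SELPLG, the P-selectin ligand, averaged 35.9 ± 0.513 FPKM in KO2, 30.6 ± 2.33 in KO1 and 38.5 ± 1.88 in WT, and it fell in KO1 (adjusted p = 0.000548) while its value in KO2 of -0.10 ± 0.06 did not pass (adjusted p = 0.169). CD44, a hyaluronan receptor of most T cells, was near 0, at 0.0445 ± 0.0388 FPKM in KO2, 0.00666 ± 0.0115 in KO1 and 0.0133 ± 0.0116 in WT.

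**Figure D5:**
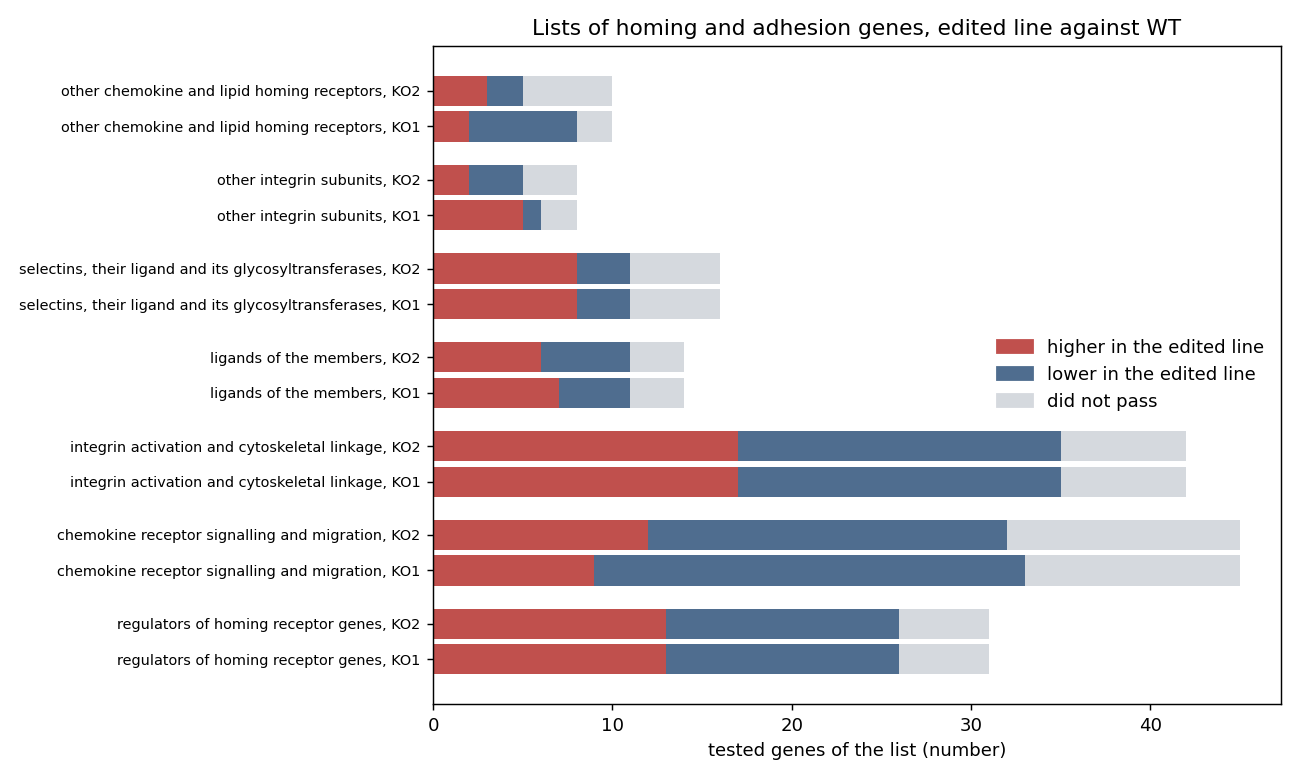
Number of tested genes (horizontal axis) in each of 7 lists of homing and adhesion genes that were higher, lower or did not pass in KO2 against WT (upper bar) and KO1 against WT (lower bar). Every list holds both rises and falls in both lines, and in the list of chemokine receptor signalling and migration 20 of 45 genes fell in KO2 and 24 in KO1.

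Over the 7 lists, 166 genes were tested, of which 61 rose and 64 fell in KO2 and 61 rose and 69 fell in KO1, with a median of -0.04 in KO2, against 0.06 over all tested genes, and -0.03 in KO1, against 0.02. The receptors with the larger changes therefore stood among related genes that moved in both directions.

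For the 3 receptor genes whose group means differed by 1 or more on the log2 scale, the genes with the most similar profile over the 9 libraries were sought among tested genes averaging at least 5 FPKM, by the root mean square difference of centred log2(FPKM + 1). The nearest to ITGAL were MIR646HG (0.13), the interleukin 7 receptor gene IL7R (0.13) and CD48 (0.14), an adhesion molecule of the SLAM family. CD48 averaged 29.4 ± 0.632 FPKM in KO2, 13.1 ± 0.568 in KO1 and 106 ± 15.8 in WT. The nearest to S1PR1 were HLA-B (0.06), DPY19L1 (0.07) and AUTS2 (0.08), and HLA-B averaged 67.3 ± 2.19 FPKM in KO2, 77.3 ± 5.77 in KO1 and 29.2 ± 0.574 in WT, though reads of HLA genes may be split between near-identical copies. The nearest to CCR7 were KIAA1549 (0.09), TTC28 (0.11) and NRIP3 (0.13). Such likeness rests on 3 groups and says nothing of shared function.

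The edited lines differed from each other in 4 of the 8 tested genes, against 30.6% of all tested genes. ITGAL and ITGB2 were higher and CCR7 and CXCR4 lower in KO2 than in KO1, and the libraries of the lines did not overlap for these 4 and for S1PR1, against 47.4% of all tested genes. Over all tested genes 59.7% of those that passed were higher in KO2, a share that was 47.9% after median centring and 49.0% after quantile normalization. The 4 differences kept their sign and passed under both scalings.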

How the data were processed

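The titles of the samples gave group and replicate. The authors deposited FPKM values, 1 column per library; that the unit is FPKM was inferred from the values and from Cufflinks being named. The submitters' processing notes list the build hg19 and the tools bedtools 2.7.0, Cufflinks 2.2.1 and STAR 2.5.0b, with no role or order. Which annotation was used, whether strand was kept and how libraries were scaled is not given, so overlapping or antisense genes may share reads. The table has 26228 rows, of which 38 contain text instead of numbers and were not used. A count test was not run, as FPKM hold no counts.

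The filter kept the 11737 genes that reached 1 FPKM in at least 3 libraries. Their log2(FPKM + 1) values were fitted with limma 3.58.1 (R 4.3.3) using a mean for each group over all 9 libraries, trended moderation of the variances, and without covariates. The fit was tested on simulated data. Subunit ratios were compared by exact two-sided permutation. The 9 genes, the 7 lists of related genes, the cell type markers and the tests were chosen with earlier results of these data known. Genes named in the text are EZH2, the 9 receptors, 26 related genes chosen by role, of which 1 is not reported here, and the 3 nearest profiles of each receptor gene that differed by 1 or more between groups, beside markers at 0 or above 1 FPKM. Chromosome neighbours are the 30 nearest tested genes, 15 on each side, by RefSeq order on GRCh38.p14, in which 98.3% of tested genes were placed; promoters are RefSeq's on that build. Alternatives were other filters, pseudocounts, scalings, moderation, samples in the fit, a stricter threshold, a replicate block and each library left out.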

Additional observations from a re-analysis of the deposited data

Results flagged for a closer look

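The change from WT differed between the edited lines, by the test of KO2 against KO1 itself, for 4 of the receptor genes. The log2 fold change of KO2 against KO1 was 0.94 for ITGAL and 0.46 for ITGB2, both less reduced in KO2, and -0.46 for CCR7, less raised in KO2. It was -0.21 for CXCR4, more reduced in KO2, beside a median of -0.43 for the 30 nearest tested genes on chromosome 2.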

How the results depend on the processing

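Of 474 values of the 8 tested receptor genes under the alternatives tried, 466 kept their direction and their side of the threshold, 4 no longer passed, 2 newly passed and 2 changed sign. Those that no longer passed were ITGB7 in KO2 and in KO1 after quantile normalization and, at adjusted p under 0.01, ITGA4 in KO2 and CCR7 in KO2 against KO1. S1PR1 in KO2 against KO1 newly passed under both scalings. The sign changes were of ITGB7 in KO2 against KO1, a value of 0.03 that did not pass, which lay between -0.0549 and 0.106 with 1 library left out and was below 0 without KO2 replicate 2 and without KO1 replicate 3. Values of related genes that did not pass and changed sign likewise were ITGB3 in KO1 (-0.114 to 0.0156) and, in KO2 against KO1, TLN1 (-0.0163 to 0.0142) and RASGRP2 (-0.0765 to 0.0107). A filter at 5 FPKM left CCR7 and ITGB7 untested. At adjusted p under 0.01, 2100 of all tested genes and 47 genes of the 7 lists passed in KO2 against KO1, against 3596 genes at 0.05 (and 46 higher and 36 lower genes of the lists). The difference of the ITGB7 to ITGB1 ratio lay between -0.00284 and 0.26 in KO1 against WT and between -0.0497 and 0.164 in KO2 against KO1 when 1 library was left out, changing sign without WT replicate 1 and without KO1 replicate 3. With the replicate number as a block, 7339 genes passed in KO2, 7694 in KO1 and 3135 in KO2 against KO1, and all calls on the receptor genes were as without it, whereas ICAM1 in KO1 no longer passed. Deviations of same-numbered libraries correlated between -0.287 and 0.318. Libraries with different numbers were not compared, so these values cannot tell whether the numbers pair the libraries. With the number of reads unknown, no counting interval can be given. FPKM under 1 are imprecise, as for CCR9 throughout, for CCR7, ITGB7 and FOXO1 in WT and for CD69 in KO1.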
